A study of Mus musculus with 3 samples.

Results

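The mitogen-activated protein (MAP) kinase cascade genes described here are the protein-coding genes of GENCODE M21 whose symbol is Mapk, Map2k, Map3k or Map4k followed by a number. There were 43 of them among 22028 protein-coding genes and 55536 annotated genes in all. They comprised 13 Mapk, 7 Map2k, 18 Map3k and 5 Map4k genes. The naming rule itself uses no measured value.

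MAP kinase cascades relay a signal from the cell surface through successive protein kinases. A MAP4K or a small GTPase engages a MAP3K, the MAP3K phosphorylates a MAP2K, and the MAP2K phosphorylates a MAP kinase on a threonine and a tyrosine of its activation loop. The MAP kinases fall into the ERK, JNK and p38 groups and a few atypical members, and they act on other kinases and on transcription factors. In macrophages, TLR4, the receptor for bacterial lipopolysaccharide, drives these cascades through the MAP3Ks encoded by Map3k7 and Map3k8, and the cascades control the transcription, stability and translation of cytokine mRNAs.

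RNA of the chromatin fraction, depleted of ribosomal RNA, was sequenced from macrophages grown from the marrow of C57BL/6J mice. In all 3 libraries the cells had first met Lipid A, the part of lipopolysaccharide that TLR4 recognises, at 100 ng/ml for 12 h, been kept without it for 12 h, and given the same dose again for 25 min. The labels carry no genotype change, age or sex, list 1 donor identifier for the 3 replicates and do not say whether these came from separate animals, so the spread given is that between these libraries and may be technical. The starting RNA was 1000, 250 and 500 ng in replicates 1, 2 and 3. No untreated or once-treated cells were analysed here. The values are therefore levels within 1 condition, without a contrast and without a p-value, and they measure RNA on chromatin rather than protein or kinase activity.

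The libraries held 13502401, 17848798 and 17824176 expected counts over annotated genes in replicates 1, 2 and 3. A count of 0 allows up to 3 counts, or 0.222, 0.168 and 0.168 CPM (counts over the library total), for counting error only. Levels below are from the gene tables, the first quantification, unless the second transcript tables are named. All 10 macrophage markers were detected, with summed levels of 1389 to 1452 TPM (a length-scaled abundance whose total is equal for each library). None of 35 markers of T, B, NK, dendritic, mast, erythroid or fibroblast cells or of neutrophils was detected in the gene tables, where no such list summed to more than 1.5 TPM in a library. Of the 35, 6 in the second transcript tables reached 1 TPM in every library (Cd3d, Cd8a, Siglech, Zbtb46, Mpo and Col1a1), and the T cell list summed to 17.8, 9.37 and 18.1 TPM, mostly from Cd3d (14.4, 7.0 and 14.9 TPM). Of 4 endothelial markers, Kdr (9.44, 1.80 and 2.99 TPM in replicates 1, 2 and 3) and Pecam1 were detected and the defining Cdh5 and Cldn5 were not. The endothelial list summed to 11.5, 3.80 and 3.99 TPM and was highest in replicate 1. So were 13 of 33 detected cascade genes (Map3k8, Map3k1, Mapk6 and Mapk9 among them), against 41.4% of all detected protein-coding genes. The fibroblast list (0.01, 1.5 and 1.32 TPM) was lowest in replicate 1. So were 15 of the 33 cascade genes (Map2k2 among them), against 33.8% of all detected protein-coding genes. The part of either list in those values was not tested. Both counts of cascade genes are from the gene tables, and the library order of some genes differed in the second transcript tables, as given below. In such bulk libraries, fewer cells of a type and less RNA per cell cannot be told apart. Errors below are SDs over the 3 libraries (n = 3), and values in a series are in the order of replicates 1, 2 and 3.

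Of the 43 genes, 33 were detected, which means at least 1 TPM in every library. The share over all protein-coding genes was 44.0%. Detection took in 7 of 13 Mapk, all 7 Map2k, 14 of 18 Map3k and all 5 Map4k genes. The median level on the log2(TPM + 1) scale was 3.36 ± 0.37 for the Mapk genes, 4.26 ± 0.10 for the Map2k genes, 3.60 ± 0.10 for the Map3k genes and 4.70 ± 0.20 for the Map4k genes. It was 3.72 ± 0.07 over all 43 genes and 0.61 ± 0.03 over all protein-coding genes. Among detected genes alone the medians lay closer, at 4.27 ± 0.04 for the cascade and 3.57 ± 0.03 for protein-coding genes. The 43 genes summed to 879, 854 and 794 TPM, or 0.295%, 0.324% and 0.313% of the TPM of protein-coding genes. The sum was thus highest in replicate 1 as TPM and lowest there as a share of protein-coding RNA, because protein-coding genes held more of the total in replicate 1.

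**Figure D1:**
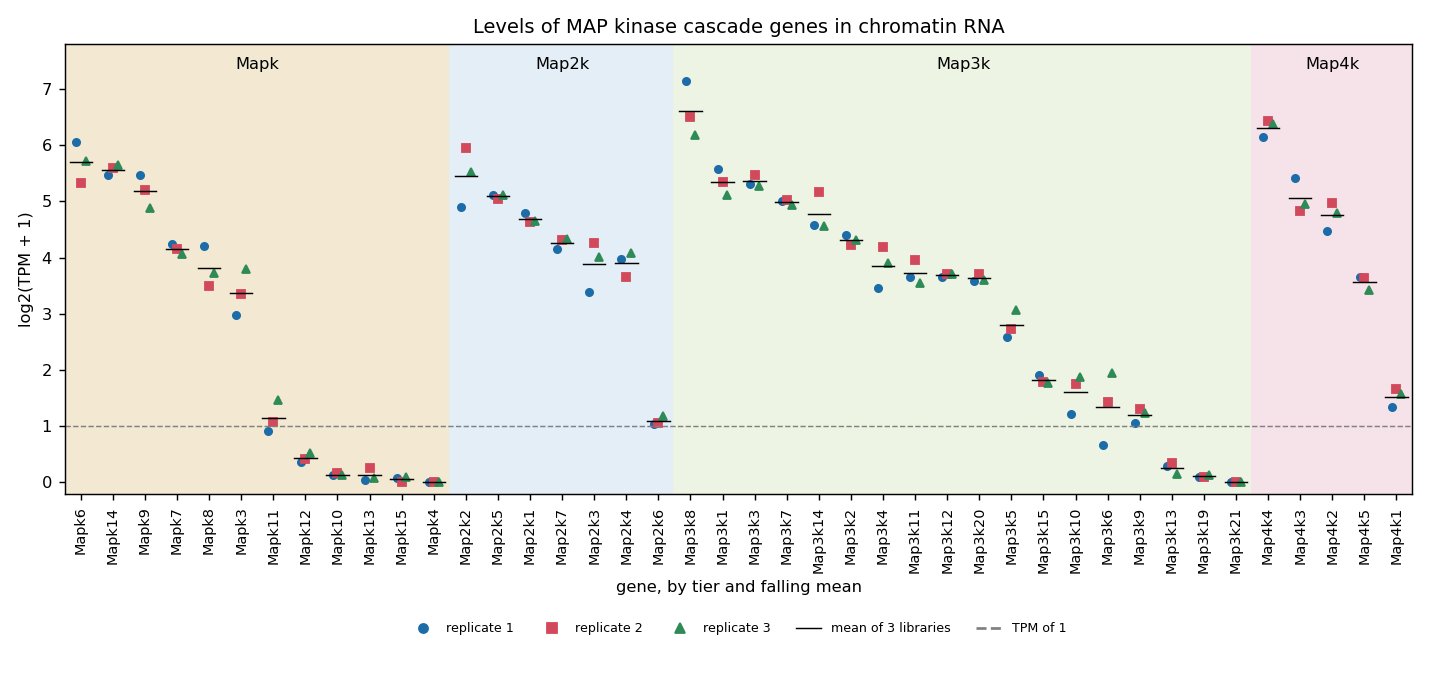
Level of the cascade genes in each library, as log2(TPM + 1) on the vertical axis, grouped by tier and ordered by falling mean; each point is 1 library. In these gene tables Map3k8 and Map4k4 stand highest with means of 100.5 and 78.7 TPM, and 10 genes did not reach 1 TPM in every library.

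The p38 group is shown with its promoters, because it sits in 2 pairs of genes that are neighbours on the genome and only 1 of its 4 genes was detected in the gene tables. Mapk14 (p38α, the form that serves most inflammatory signalling in macrophages) lies on chromosome 17 from 28691329 to 28748406 (GRCm38), and Mapk13 (p38δ) begins 20.89 kb further on. Mapk12 (p38γ) and Mapk11 (p38β) lie on chromosome 15 with 1782 bases between them. The sequences, from RefSeq (GRCm38.p6), run from 250 bases before to 50 bases after the annotated start, 5′ to 3′ on the gene's strand, with CG dinucleotides in capitals. They are chr17:28691092-28691391 on the plus strand (Mapk14), chr17:28769067-28769366 on the plus strand (Mapk13), chr15:89149557-89149856 on the minus strand (Mapk11) and chr15:89140654-89140953 on the minus strand (Mapk12).
Mapk14: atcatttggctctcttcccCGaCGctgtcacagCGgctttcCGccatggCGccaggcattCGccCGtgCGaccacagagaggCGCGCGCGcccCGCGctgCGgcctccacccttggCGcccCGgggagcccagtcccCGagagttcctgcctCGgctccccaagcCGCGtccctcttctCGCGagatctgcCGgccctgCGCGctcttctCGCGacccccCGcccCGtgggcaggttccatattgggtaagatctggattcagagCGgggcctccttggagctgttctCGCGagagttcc
Mapk13: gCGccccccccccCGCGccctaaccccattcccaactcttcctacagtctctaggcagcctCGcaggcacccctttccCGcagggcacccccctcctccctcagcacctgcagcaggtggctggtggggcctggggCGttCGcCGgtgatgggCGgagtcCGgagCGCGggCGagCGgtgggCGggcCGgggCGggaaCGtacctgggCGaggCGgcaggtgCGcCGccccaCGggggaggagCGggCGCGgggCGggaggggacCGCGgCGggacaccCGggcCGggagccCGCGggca
Mapk11: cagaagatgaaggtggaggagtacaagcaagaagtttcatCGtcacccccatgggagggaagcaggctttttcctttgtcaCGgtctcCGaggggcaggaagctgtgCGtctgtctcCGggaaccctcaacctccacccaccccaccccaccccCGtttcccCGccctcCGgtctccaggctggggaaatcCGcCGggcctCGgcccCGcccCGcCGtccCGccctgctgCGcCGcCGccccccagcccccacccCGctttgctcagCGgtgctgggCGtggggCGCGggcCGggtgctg
Mapk12: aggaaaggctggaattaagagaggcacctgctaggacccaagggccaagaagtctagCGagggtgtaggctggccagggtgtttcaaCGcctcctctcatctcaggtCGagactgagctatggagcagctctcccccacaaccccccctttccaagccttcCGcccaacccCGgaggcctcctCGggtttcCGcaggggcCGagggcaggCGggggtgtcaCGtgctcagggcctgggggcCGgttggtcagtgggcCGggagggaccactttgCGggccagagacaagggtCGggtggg

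Mapk14 was measured at 43.1, 47.3 and 48.9 TPM (46.4 ± 2.99). Its neighbour Mapk13 held 0.03, 0.20 and 0.06 TPM, from 1, 3 and 1 expected counts. Mapk11 was at 0.88, 1.12 and 1.75 TPM and missed the detection threshold in replicate 1 alone, with 24, 41 and 70 counts. Mapk12 was at 0.29, 0.33 and 0.44 TPM from 5, 5 and 8 counts. These calls depended on the processing: Mapk12 reached 2.96, 3.77 and 2.91 TPM in the second transcript tables, and Mapk11 passed with posterior mean TPM (1.36, 1.65 and 2.17). Mapk14 thus lay above the other three in every library, by 48.9, 42.2 and 27.9 times over Mapk11. The size of the gap to Mapk12 depended on the quantification, at 149, 143 and 111 times in the gene tables and 29.6, 24.0 and 32.8 times in the second transcript tables. The printed promoter windows of Mapk14 and Mapk13 held 33 and 34 CG dinucleotides, those of Mapk11 and Mapk12 held 24 and 14, so Mapk13 at 1 to 3 counts had about as many as the printed window of Mapk14. Another Mapk14 window, from 28692318 to 28692617, held 18.

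Stretches rich in CG dinucleotides mark the promoters of many broadly transcribed genes. Windows were in the RefSeq table for 34 of the 43 genes (46 windows), and the window with the most CG was taken for each gene. The other 9 genes, Map3k8, Map4k4, Map3k2 and Mapk3 among them, had no window and were not searched. The 27 detected cascade genes with a window had a median of 29 CG (range 14 to 55), and the 7 that were not detected a median of 14 (range 0 to 34). Over protein-coding genes the medians were 23 for 7761 detected genes and 6 for 8761 others. Motifs were searched on both strands. The cyclic AMP response element TGACGTCA was in 1 of 46 windows, that of Mapk10, against 1.79% of 32851 windows of all genes. The AP-1 motif TGANTCA was in 3 windows (Map2k6, Map2k7 and Map3k10) against 7.81% of all. The NF-κB consensus was in 5 windows, of Map3k7, Map4k1, Map4k2 and, in a pair of overlapping windows, Mapk7, against 5.80% of all. A match is a description of these letters and does not show binding.

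Mapk3 encodes ERK1, a classical MAP kinase of the ERK arm. It stood at 6.93, 9.19 and 12.8 TPM (9.65 ± 2.97), highest in replicate 3 and lowest in replicate 1.

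Among the JNK genes, Mapk9 (JNK2) was measured at 43.3, 35.9 and 28.6 TPM (35.9 ± 7.36) and Mapk8 (JNK1) at 17.5, 10.3 and 12.3 TPM (13.4 ± 3.73). Mapk9 was above Mapk8 in every library, by 2.47, 3.50 and 2.33 times, and the ranges did not overlap. The directions given for the JNK and p38 genes were the same in the second transcript tables. Mapk10 (JNK3, known mainly from the nervous system) held 8, 11 and 10 counts, or 0.09 to 0.12 TPM. With posterior mean TPM it passed the threshold in every library (2.48, 2.96 and 2.42). The second transcript tables gave it a mean of 0.291 TPM, so the call of Mapk10 depended on the processing.

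The highest MAP kinase gene by mean in the gene tables was an atypical one. Mapk6 encodes ERK3, which lacks the usual dual phosphorylation motif and binds the kinase MAPKAPK5, and it reached 65.8, 39.0 and 51.5 TPM (52.1 ± 13.4). Its range overlapped that of Mapk14, which was higher in replicate 2, so the order of this pair was not settled by 3 libraries. In the second transcript tables Mapk14 was the higher by mean, at 91.2 against 72.6 TPM. Mapk7 (ERK5, the target of the MAP2K encoded by Map2k5) was steady at 17.8, 16.7 and 15.7 TPM (16.7 ± 1.09). Mapk15 had at most 2 counts in a library, and Mapk4 (ERK4, the paralogue of ERK3) had none in the gene tables and a mean of 0.52 TPM in the second transcript tables.

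Of the MAP2K genes, Map2k1 and Map2k2 encode MEK1 and MEK2, the MAP2Ks of the ERK arm. Map2k2 was at 29.0, 60.8 and 44.9 TPM (44.9 ± 15.9), 2.10 times higher in replicate 2 than in replicate 1. Map2k1 was at 26.8, 23.7 and 24.2 TPM (24.9 ± 1.67), with no more than 1.13 times between libraries in the gene tables. The ratio of Map2k2 to Map2k1 was 1.08 in replicate 1 and 2.56 and 1.86 in the others. In the second transcript tables Map2k1 was the less even, at 40.4, 26.2 and 32.0 TPM (1.54 times), and Map2k2 spread by 1.19 times. The ratios there were 1.36, 2.51 and 1.90. Map2k5 (MEK5) was the steadiest of the tier in the gene tables, at 33.7, 32.0 and 33.6 TPM (33.1 ± 0.99).

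The p38 activators were unequal. Map2k3 (MKK3) was at 9.52, 18.2 and 15.2 TPM (14.3 ± 4.39) and Map2k6 (MKK6), the lowest of the tier, at 1.05 to 1.27 TPM (1.13 ± 0.12). Map2k3 exceeded Map2k6 by 9.07, 17.0 and 11.9 times. The JNK activators Map2k7 (MKK7), at 16.7, 18.8 and 19.0 TPM (18.2 ± 1.26), and Map2k4 (MKK4), at 14.7, 11.6 and 15.9 TPM (14.0 ± 2.25), were close in the gene tables, with ratios of 1.14, 1.63 and 1.20. In the second transcript tables the order turned, and the same ratios were 0.347, 0.547 and 0.512, so no order of this pair is given.

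The highest level of the whole cascade by mean in the gene tables was that of Map3k8 (chromosome 18, 4331327 to 4353015, minus strand). It encodes TPL2, the MAP3K that links TLR4 to the ERK arm and that is held in a complex with the NF-κB precursor p105. It was measured at 140.2, 89.6 and 71.7 TPM (100.5 ± 35.6), from 3035, 2260 and 2013 counts. Replicate 1 was 1.96 times replicate 3, just inside the 2-fold limit used for spread. The gene lay between the percentiles 96.8 and 98.4 of protein-coding genes, and it took 39.5%, 27.4% and 25.7% of the summed TPM of the Map3k genes. Map4k4 was higher than Map3k8 in replicate 3, so first place held in 2 of 3 libraries. In the second transcript tables the mean of Map4k4 (120.4 TPM) was above those of Map3k1 and Map3k8, both 103 TPM, so no first place is given.

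Other MAP3K genes known from receptor signalling were lower by mean in the gene tables, but Map3k1 was level with Map3k8 in the second transcript tables. Map3k7 encodes TAK1, the MAP3K that works with TAB adaptors below TRAF6, and stood at 31.0, 31.4 and 29.7 TPM (30.7 ± 0.92). Map3k14 encodes NIK, the kinase of the non-canonical NF-κB pathway, and was at 22.9, 34.9 and 22.7 TPM (26.8 ± 7.0), high in replicate 2. Map3k1 (MEKK1) was at 46.9, 39.8 and 33.4 TPM (40.1 ± 6.75). Map3k3 (MEKK3) was at 38.8, 43.5 and 37.7 TPM (40.0 ± 3.06). Map3k2 (MEKK2) was at 20.2, 17.8 and 18.9 TPM (19.0 ± 1.24). Map3k1 was thus highest in replicate 1, Map3k3 in replicate 2, and their ranges overlapped.

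Stress-linked MAP3K genes were lower in the gene tables, though not Map3k11 in the second transcript tables, where its 38.1 TPM exceeded the 27.8 of Map3k14 and the 20.6 of Map3k2. Map3k4 (MEKK4) was at 10.1, 17.2 and 14.0 TPM (13.7 ± 3.56) and lowest in replicate 1. Map3k11 (MLK3) was at 11.7, 14.6 and 10.6 TPM (12.3 ± 2.06). Map3k12 (DLK, studied mainly in neurons) was at 11.5, 12.1 and 12.1 TPM (11.9 ± 0.32). Map3k20 (ZAK, a sensor of stalled ribosomes) was at 10.9, 12.1 and 11.2 TPM (11.4 ± 0.64). Neighbouring ranges among these 4 genes overlapped, so their order is not resolved. Below 10 TPM by mean lay Map3k5 (ASK1, a kinase of the oxidative stress response) at 4.98 to 7.41 TPM, Map3k15 at 2.41 to 2.74, Map3k10 at 1.33 to 2.66 and Map3k9 at 1.07 to 1.48 TPM. Map3k6 (ASK2) fell short of 1 TPM in replicate 1 alone, at 0.58, 1.71 and 2.86 TPM from 32, 61 and 79 counts, and passed in the second transcript tables at 1.15, 1.51 and 3.24 TPM. Map3k13 had 0.11 to 0.27 TPM and Map3k19 0.07 to 0.10 TPM, and Map3k21 had no count in any library, below the limits given above.

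Among the MAP4K genes, Map4k4 (HGK, chromosome 1, 39900913 to 40026310) was at 69.7, 84.7 and 81.8 TPM (78.7 ± 7.97), between the percentiles 95.9 and 97.4 of protein-coding genes. It alone made up 47.8%, 54.2% and 54.3% of the summed TPM of the tier. Map4k3 (GLK) was at 41.8, 27.4 and 30.1 TPM (33.1 ± 7.67) and Map4k2 at 21.1, 30.5 and 26.9 TPM (26.2 ± 4.74), the first highest and the second lowest in replicate 1. In the second transcript tables Map4k2 was instead highest in replicate 1, at 33.6, 31.1 and 32.9 TPM. Map4k5 was at 11.6, 11.4 and 9.78 TPM (10.9 ± 1.00). Map4k1 (HPK1, known as the blood-cell member of the group) was the lowest, at 1.55 to 2.15 TPM (1.90 ± 0.31).

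With all 33 detected genes set in order of mean TPM, 32 pairs of neighbours arise. In 8 pairs the higher gene was higher in every library, and in 5 the ranges lay apart: Map4k4 above Mapk6, Map2k5 above Map3k7, Map2k1 above Map3k2, Map3k5 above Map3k15 and Map4k1 above Map3k9. For all other neighbours the ranges overlapped. Mapk3 above Map3k5 and Map3k9 above Map2k6 were among those in order in every library. By mean, the second transcript tables reversed both (13.3 against 18.4 TPM and 1.40 against 2.09 TPM), so no order is given for them. Of the 5 pairs with ranges apart, the second transcript tables kept 4 apart. They reversed Map2k5 and Map3k7 in every library (41.1, 32.8 and 37.2 against 69.5, 51.4 and 58.9 TPM), so the order of Map2k5 and Map3k7 is not resolved.

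The libraries differed by more than 2-fold for 1 of 33 detected genes, Map2k2, against 9.15% of detected protein-coding genes. Map3k10 lay at the limit, with 2 times between replicates 3 and 1, and Map3k8 just inside it. Map2k2 lost its spread in the second transcript tables, at 55.2, 65.9 and 60.8 TPM, or 1.19 times. The median ratio of the highest to the lowest library was 1.38 for the cascade and 1.37 for protein-coding genes, and the median coefficient of variation was 16.2% and 16.5%. By edgeR's biological coefficient of variation, which is pulled toward the trend over all genes, the median was 0.190 over the 37 cascade genes with enough counts and 0.197 over 10969 protein-coding genes. The highest values belonged to Mapk11 (0.296), Map3k13 (0.290), Map3k10 (0.270), Map3k6 (0.264) and Map2k2 (0.247), of which all but Map2k2 had under 100 counts in each library. Replicates 1, 2 and 3 were the highest library for 13, 12 and 8 of the 33 genes, where all detected protein-coding genes gave 41.4%, 38.5% and 19.9%. They were the lowest for 15, 7 and 11 genes, where all detected protein-coding genes gave 33.8%, 31.1% and 34.7%. These counts hold for the gene tables only and were not taken in the second transcript tables. Map4k2, Map3k12, Map3k20 and Map3k5, lowest in replicate 1 in the gene tables, were highest there in the second transcript tables. Map2k2 was lowest in replicate 1 in both. The count of genes past 2-fold rose with other scalings, to 6 when TPM were taken over protein-coding genes only (Map2k2, Map2k3, Mapk3, Map3k10, Map3k6 and Mapk11) and 5 in the second transcript tables (Map3k8, Mapk6, Map4k3, Mapk8 and Map3k6). The share over all detected protein-coding genes was not taken in these settings, so neither count is read as a trait of the cascade. The same holds for the low count of 1 in the gene tables.

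**Figure D2:**
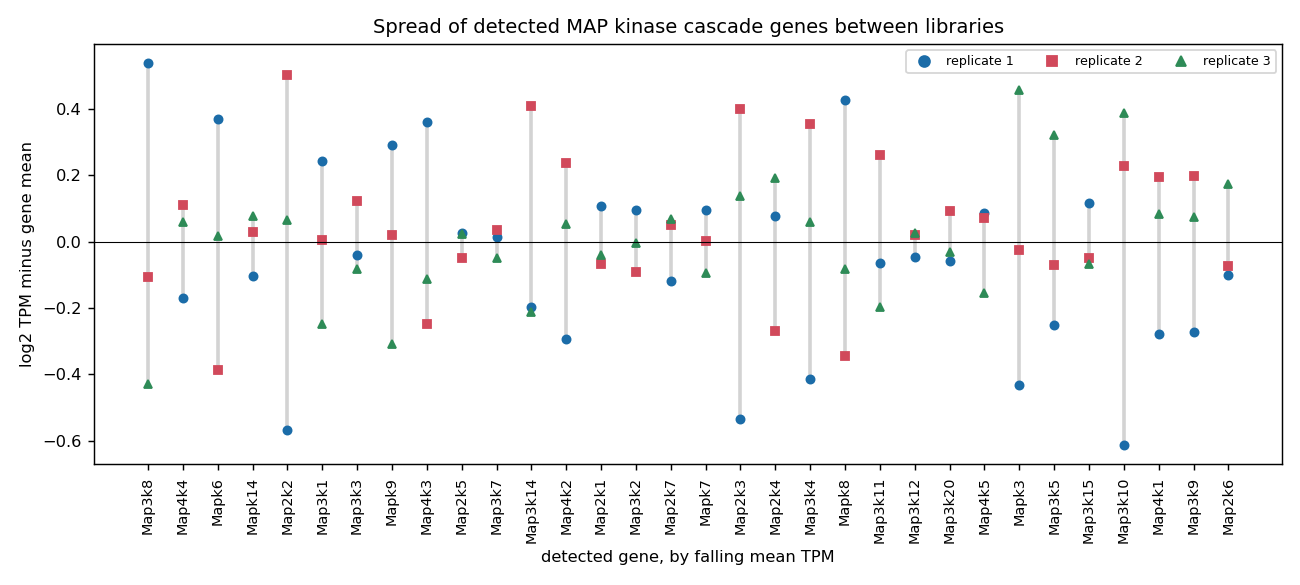
For the detected genes, ordered by falling mean, the vertical axis gives log2 TPM of each library minus the gene's mean; each point is 1 library. Map2k2, with 2.10 times between replicates 2 and 1, has the widest spread in the gene tables, and Map3k10 and Map3k8, at 2 and 1.96 times, come close to it.

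Chromatin RNA includes transcripts still being made or spliced, and the transcript tables assign each gene's TPM to annotated forms. For 27 cascade genes with at least 5 TPM and with both protein_coding and other transcripts, the median share outside protein_coding forms was 51.1%, against 52.4% over 5863 such protein-coding genes. In 11 of the 27 this share was at least 50% in every library, a count to be read against 45.2% of all. The median share in forms annotated as retained_intron was 42.3% for the cascade and 38.7% for all. The cascade thus lay near the background in both respects. Reads of an intron that is not yet spliced and reads of a form that keeps it cannot be told apart in these tables.

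Within the cascade the shares ranged widely. The highest shares outside protein_coding forms were those of Map4k2 (80.6% ± 5.38), Mapk6 (74.2% ± 2.90), Map3k8 (73.4% ± 2.76) and Map2k3 (72.3% ± 5.48). The lowest were those of Map2k7 (11.0% ± 5.75), Map2k5 (24.9% ± 5.89), Map3k12 (26.7% ± 2.31) and Mapk14 (27.5% ± 5.96). Membership of these groups depended on the quantification. In the second transcript tables Map3k7 (84.0%) and Map4k5 (77.1%) exceeded Map3k8 (68.3% ± 4.40), and the share of Mapk14 was 47.9% ± 2.77, above the 22.1% of Map3k11.

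For Map3k8, the form Map3k8-203, annotated as retained_intron with 2 exons and 2048 bases, took 72.8, 38.4 and 32.4 TPM. The coding form Map3k8-201, with 8 exons, took 32.8, 25.0 and 20.4 TPM, and the retained_intron form Map3k8-204 took 34.2, 24.4 and 16.3 TPM. All 3 forms were highest in replicate 1 and lowest in replicate 3, and Map3k8-203 was the most abundant in each library of the first quantification. In the second transcript tables Map3k8-203 was at 64.3, 26.5 and 25.3 TPM and Map3k8-201 at 41.2, 28.0 and 24.8 TPM, so the coding form was the higher in replicate 2. For Mapk6 the retained_intron forms Mapk6-204 (17.0 ± 3.26 TPM) and Mapk6-207 (15.6 ± 6.00 TPM) exceeded the coding Mapk6-201 (8.01 ± 2.16 TPM) by mean. For Mapk14 the levels of the coding forms depended on the library and the quantification: Mapk14-202 was at 2.60, 13.6 and 13.4 TPM and Mapk14-203 at 11.6, 4.83 and 7.79 TPM, and the second transcript tables put Mapk14-202 at a mean of 0.098 TPM.

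**Figure D3:**
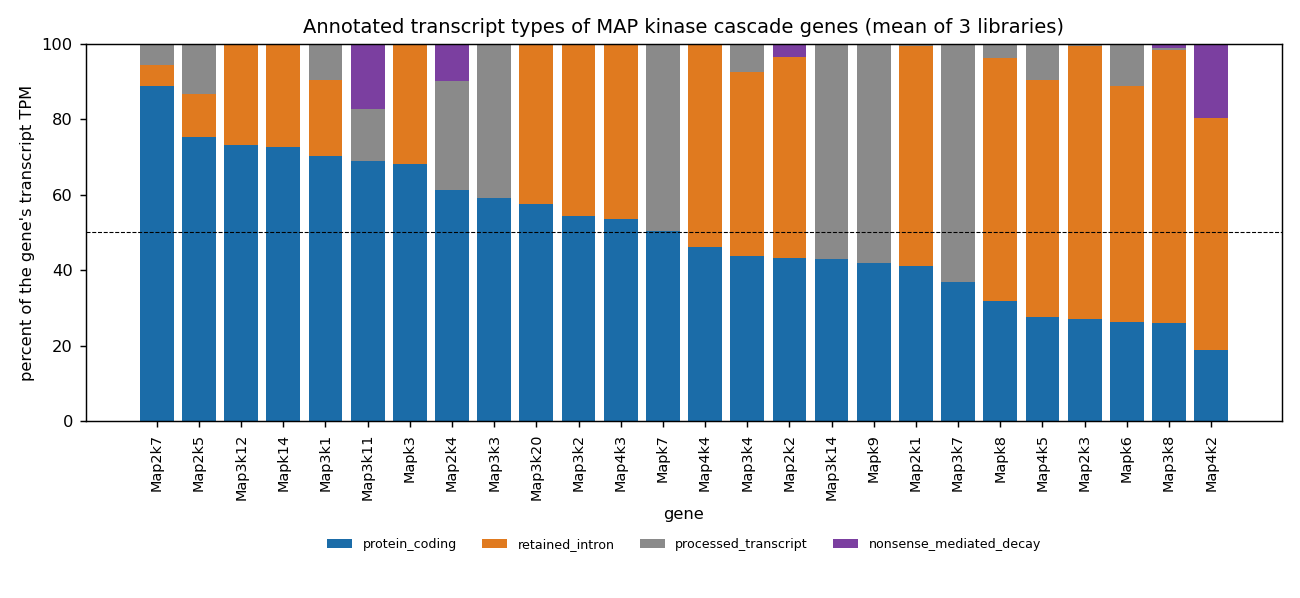
Stacked bars from 0 to 100 give, by gene, the percent of transcript TPM in each annotated transcript type, as the mean of 3 libraries. Map4k2, Mapk6, Map3k8 and Map2k3 have the smallest protein_coding part and Map2k7 the largest in the first transcript tables.

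The 2 quantifications were compared for every detected gene. They lay within 2-fold in every library for 25 of 33 genes, against 72.5% of detected protein-coding genes. The second was over 2 times the first in every library for 4 genes, Map2k4, Map3k11, Map3k5 and Map3k1, against 10.8%, and under 0.5 times for none, against 0.0826%. Over the cascade the median ratio of second to first was 1.35, and over protein-coding genes 1.33.

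Map3k1 had means of 40.1 and 103 TPM in the first and the second quantification, Map2k4 14.0 and 53.2, Map3k11 12.3 and 38.1, and Map3k5 6.01 and 18.4. Short annotated forms held much of each gap. Map3k1-203 (443 bases) was at 3.85 TPM in the first and 35.2 in the second, and Map3k1-204 (867 bases) at 6.74 and 23.0. Map2k4-206 (922 bases) was at 4.07 and 22.3, and Map2k4-204 (527 bases) at 2.92 and 16.0. Map3k11-202 (363 bases) was at 0.55 and 24.1, and Map3k5-205 (378 bases) at 0 and 9.02. Levels of these 4 genes are thus uncertain by 2.57 to 3.79 times, while Map3k8 had means of 100.5 and 103 TPM in the 2 sources.

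**Figure D4:**
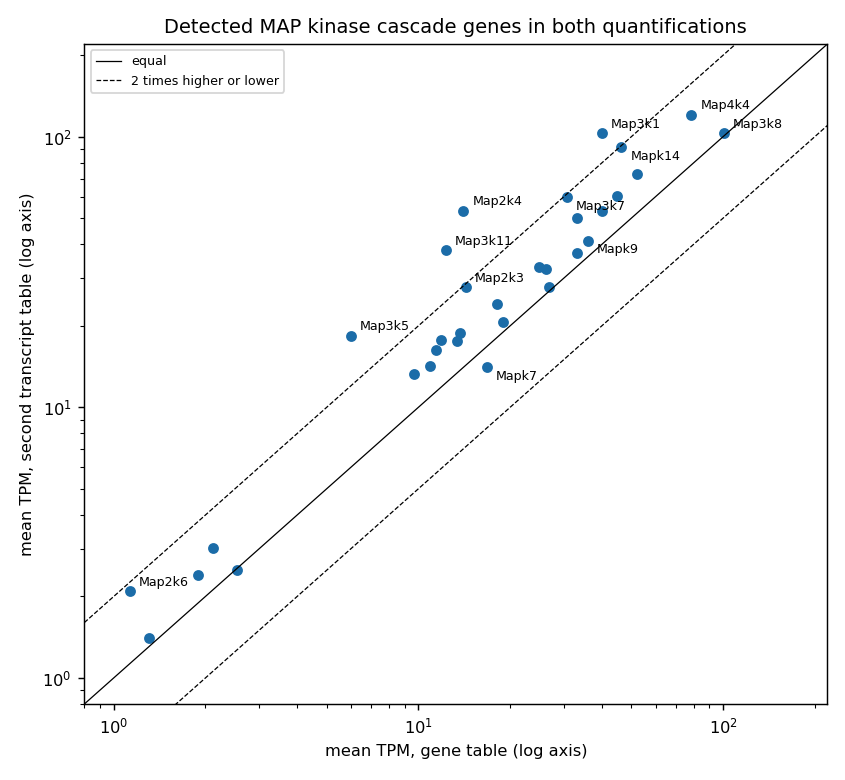
Mean TPM of 3 libraries for the detected genes in the gene tables (horizontal, log axis) and in the second transcript tables (vertical, log axis), with lines for equal values and for 2 times higher or lower. Map2k4, Map3k11, Map3k5 and Map3k1 lie above the upper line and no gene below the lower one.

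Annotated genes overlapped 23 of the 43 genes, on the opposite strand for 16. Since the strand setting of the counting is not given in the sources used here, reads of such partners cannot be told apart. The values of Mapk7, Mapk8, Map2k1, Map3k3, Map3k4, Map3k7, Map3k11, Map3k12, Map4k2, Map4k3 and Map4k5 carry this limit. So do those of the low genes Map3k10, Map3k13, Map3k15 and Mapk4. Map3k8, Map4k4, Mapk6, Mapk14, Map2k2 and Map3k1 had no gene annotated on the opposite strand. Mapk6 (Gm18015 and Gm5366) and Mapk14 (AC170998.1) did overlap genes on the same strand, as did Map2k4, Map2k7, Map3k14 and Map3k20 among others. Strand cannot separate the reads of such same-strand partners.

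Other genes of the pathway were taken from 4 lists, in which 57 of 63 genes were detected, against 44.0% of all protein-coding genes. The lists were written by hand, so their counts describe the listed genes only. All 13 genes listed around RAS and RAF were detected. Araf, a MAP3K by function that falls outside the naming rule, was at 55.1, 59.5 and 55.7 TPM (56.8 ± 2.39), above every Map3k gene but Map3k8 by mean in the gene tables. The adaptor Grb2 was at 59.5 ± 5.52 TPM and Rasa1, a GTPase-activating protein for RAS, at 42.6 ± 9.13 TPM.

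Of 20 scaffolds, adaptors and binding partners, 16 were detected. The highest were Iqgap1 (308, 193 and 225 TPM, 242 ± 59.6), a scaffold of the ERK arm, Mapk8ip3 (158 ± 25.2 TPM) and Spag9 (79.1 ± 7.0 TPM), scaffolds of the JNK arm, and Nfkb1 (72.0 ± 7.75 TPM), which encodes p105. Sh3rf1, Mapk8ip1, Ksr2 and Mapk8ip2 were not detected, at 0 to 1.27 TPM. Both binding partners of TPL2 were thus present beside Map3k8: Nfkb1 at 80.6, 65.6 and 69.7 TPM and Tnip2 at 40.6, 41.2 and 41.8 TPM. Of the TAK1 adaptors, Tab2 was at 57.1 ± 11.0 TPM, Tab1 at 12.5 ± 2.93 TPM and Tab3 at 4.16 ± 1.04 TPM.

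Of 11 related kinases, 10 were detected, led by the MAP3K-like Taok3 (137.9, 121 and 103 TPM, 120.6 ± 17.7), Mink1 (89.9 ± 5.82 TPM), a close relative of Map4k4, Taok2 (45.5 ± 4.46 TPM) and Stk4 (38.2 ± 7.58 TPM). Tnik, another relative of Map4k4, was at 2.83, 1.49 and 0.97 TPM and missed the threshold in replicate 3. Of 19 kinases and transcription factors acted on by MAP kinases, 18 were detected. Mknk1, a kinase of the translation factor eIF4E, was at 102.4, 126 and 98.3 TPM (109 ± 15.2). Mef2a, a transcription factor target of p38 and ERK5, was at 64.6 ± 18.6 TPM, and Elk4, a ternary complex factor, at 39.0 ± 3.36 TPM. Mapkapk5, the partner of ERK3, was at 39.3 ± 4.44 TPM, below Mapk6 (52.1 ± 13.4 TPM) in every library of the gene tables. In the second transcript tables Mapkapk5 was lower by mean (60.6 against 72.6 TPM) but higher in replicate 2 (50.9 against 48.3 TPM). Rps6ka6 had 0 TPM in every library. Median levels of the 4 lists on the log2(TPM + 1) scale were 4.38 ± 0.19, 4.06 ± 0.33, 4.13 ± 0.12 and 4.66 ± 0.05 in the order given, where the 43 cascade genes had 3.72 ± 0.07 and all protein-coding genes 0.61 ± 0.03.

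**Figure D5:**
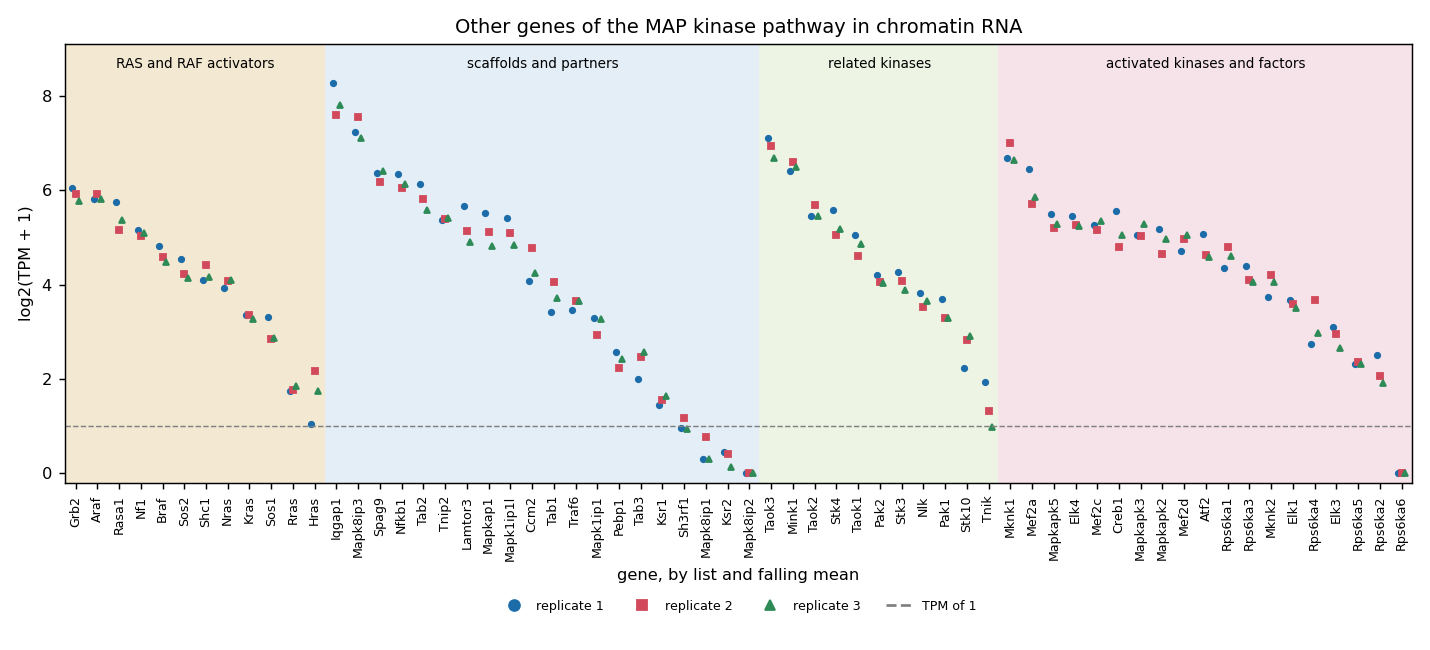
Level of the genes of the 4 pathway lists in each library, as log2(TPM + 1), by list and falling mean; each point is 1 library. Iqgap1 (mean 242 TPM), Mapk8ip3, Taok3 and Mknk1 stand above 100 TPM by mean, and 6 of the 63 genes were not detected.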

How the data were processed

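Per the file headers, the deposited gene tables and first transcript tables hold expected counts, TPM and posterior mean TPM under RSEM's column names, and the second transcript tables hold estimated counts and TPM under kallisto's. The deposited notes give mm10 and GENCODE M21; aligner, version and strand setting were not given in the sources used here. Rows that are no annotated gene (1.75%, 0.396% and 0.239% of expected counts in replicates 1, 2 and 3) were left out. Chi-square statistics over genes, without the ribosomal RNA locus on chromosome 17, were 36.8, 26.1 and 19.3 per degree of freedom for replicates 1 and 2, 1 and 3, and 2 and 3, above counting noise. Libraries were treated as replicates as the labels number them.

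The genes, lists and rules were chosen with earlier results of these data known. Genes with a mean of at least 10 TPM were given in every library, and others by range. Also named were genes with over 2-fold spread or over 2-fold between quantifications in every library, the 4 highest and 4 lowest shares outside protein_coding forms, and the 4 highest and the undetected genes of each pathway list. Mapk8ip4, also listed, was not analysed here, and the values of some single genes that enter the counts and medians are not reported here or drawn in the figures. The coefficient of variation was estimated from rounded expected counts with edgeR 4.0.16 (R 4.3.3) over 14193 genes after filterByExpr and TMM, with an intercept only, by a script tested on simulated data. Log2 levels used a pseudocount of 1. With 1 group no test was run. Alternatives were the second quantification, posterior mean TPM, TPM over protein-coding genes, other scalings, thresholds and filters, and leaving out each library. Tables and figures were made with matplotlib 3.10.9, scipy 1.17.1, pandas 2.3.3 and numpy 2.4.6 in Python 3.11.15. Precision is limited by 3 libraries and, for genes under 100 counts, by counting error.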

Additional observations from a re-analysis of the deposited data

How the results depend on the processing

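The count of detected cascade genes (33), of detected pathway genes (57) and of genes with at least 50% of their TPM outside protein_coding forms (11) stayed within 1.5 times under every alternative run, at 29 to 36, 57 to 60 and 9 to 16. The count of genes past 2-fold spread (1) became 5 in the second quantification, 2 with posterior mean TPM, 6 with TPM over protein-coding genes, 2 with TMM-scaled CPM and 11 at a threshold of 1.5; leaving out 1 library gave 0 to 1, with 0 without replicate 1 or replicate 2, the libraries between which Map2k2 differed. The median log2 level (3.72) was 4.26 in the second quantification, 5.52 with TPM over protein-coding genes, 3.62 with a pseudocount of 0.1 and 4.27 over detected genes. The median coefficient of variation (0.190) was 0.153 to 0.234 without 1 library, highest without replicate 3. Agreement of both quantifications (25 genes) fell to 14 within 1.5-fold. Shares over all protein-coding genes were not taken under the alternatives. The causes were not tested. Of the 26 genes with a mean of at least 10 TPM, 22 moved by more than 1 SD in the second quantification. Marker levels and the order of genes were also read in the second quantification, a choice made after seeing the data. No paired analysis was possible because there is 1 group. Genes under 100 counts, Mapk11 and Map3k6 among them, are limited by depth.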
